A study of Mus musculus with 45 samples.

Results

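Notch1, Notch2 and Notch3, which encode Notch receptors, and Jag1 and Jag2, which encode their Jagged ligands, were followed as a transcription wave passed through them in mouse embryonic stem cells (ESCs). The 5 genes were taken by name, with every Ensembl transcript that the deposited tables list for them. Of 17 listed transcripts, 8 had a wave-front boundary in at least 1 sample, against 59956 of 122968 transcripts in the whole series. Those 8 were 3 of 11 transcripts of Notch1, 2 of 2 of Notch2, the single transcript of Notch3, 1 of 2 of Jag1 and the single transcript of Jag2. The 9 transcripts without a boundary were all at most 3.06 kb long.

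The cells carried wild-type Polr2a, the gene of the largest subunit of RNA polymerase II (RNAPII), on both alleles (WT/WT), the R749H substitution on 1 allele (WT/slow) or the substitution on both (slow/slow), introduced by homologous recombination at the endogenous locus of E14 ESCs. The slow/slow cells were made from the WT/slow cells by a further round of targeting. All were grown in 2i medium, were held for 4 h in DRB, a drug that stops RNAPII near the promoter, and were then released into medium without DRB for 5, 15 or 30 min. Newly made RNA was labelled with 4-thiouridine for the last 10 min before harvest. There were 3 replicates of each genotype and time, 27 samples in all. The methods describe the replicates as biological, and the number of independently targeted lines behind each genotype is not given in the sources used here.

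Each value is a boundary, the distance in kb between the annotated start of a transcript and the far end of its wave of labelled RNA. Read counts are not part of these values, depth is therefore not known, and error was taken from the spread between replicates. Between 41989 and 55046 transcripts had a boundary in a sample. The commonest value by far was exactly 2.5 kb, and the plots mark it. Whether it is a set value of the software or a measured front is not given in the sources used here. Among transcripts of at least 20 kb it made up 18.3% to 25.7% of the boundaries of a sample after 5 min, 32.2% to 56.4% after 15 min and 55.8% to 73.5% after 30 min. At 15 min that share was 40.9% to 56.4% in the WT/WT libraries and 32.2% to 38.1% in the slow/slow libraries, without overlap. A boundary is also not an expression level, so the ESC identity of the cells could not be checked by levels. Of 10 markers of naive ESCs 7 had a boundary in at least 1 sample, as did 4 of 5 neural markers and 3 of 5 markers of mesoderm and endoderm. The markers without a boundary were all at most 5.96 kb long, though Klf4, at 5.32 kb, had one in 20 samples. These counts are bound up with gene length and are no check of cell identity.

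Notch signalling works between cells that touch. A Jagged or Delta-like ligand on one cell binds a Notch receptor on its neighbour, the receptor is cut by an ADAM protease and then by the gamma-secretase complex, and the freed intracellular domain enters the nucleus, where it joins RBPJ and a Mastermind-like coactivator at target genes such as those of the Hes and Hey families. The pathway directs many choices of cell fate, among them those of neural progenitors, and in ESCs it has been linked to the entry into neural differentiation. Its receptors are long multi-exon genes, which makes them suited to following a wave of transcription over time.

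The sequences around the starts are shown because every boundary is counted from them. Each is a stretch of 100 bases of GRCm38, read 5′ to 3′ on the strand of the gene, with the 80 bases before the start in lower case and the first 20 transcribed bases in capitals.
Notch1, chr2:26503803-26503902, minus strand: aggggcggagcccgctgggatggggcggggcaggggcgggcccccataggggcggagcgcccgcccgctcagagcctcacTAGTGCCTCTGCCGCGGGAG
Notch1 upstream start, chr2:26516644-26516743, minus strand: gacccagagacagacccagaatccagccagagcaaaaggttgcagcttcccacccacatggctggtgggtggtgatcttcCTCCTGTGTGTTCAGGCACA
Notch2, chr3:98013458-98013557, plus strand: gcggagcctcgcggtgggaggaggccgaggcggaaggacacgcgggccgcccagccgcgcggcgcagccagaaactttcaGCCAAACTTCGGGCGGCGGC
Notch3, chr17:32166861-32166960, minus strand: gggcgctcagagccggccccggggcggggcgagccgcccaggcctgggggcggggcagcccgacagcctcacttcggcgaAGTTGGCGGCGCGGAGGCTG
Jag1, chr2:137116625-137116724, minus strand: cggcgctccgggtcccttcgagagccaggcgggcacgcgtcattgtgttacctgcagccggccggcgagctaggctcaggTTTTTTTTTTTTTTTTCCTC
Jag2, chr12:112929476-112929575, minus strand: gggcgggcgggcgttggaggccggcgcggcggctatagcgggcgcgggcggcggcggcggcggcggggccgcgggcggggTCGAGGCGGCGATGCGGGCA

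All 5 main starts lay in CpG-rich sequence, with 10 CpG dinucleotides in the 100 bases shown for Notch1, 15 for Notch2, 13 for Notch3, 10 for Jag1 and 23 for Jag2. The upstream Notch1 start held 0. In the RefSeq promoter windows of the same genes on GRCm38.p6, 300 bases each, the number of CpG dinucleotides was 23 for Notch1, 41 for Notch2, 25 for Notch3, 22 for Jag1 and 63 for Jag2, where the median over 32851 promoters was 7. The share of promoters with fewer was 78.5% for Notch1, 96.5% for Notch2, 81.6% for Notch3, 76.9% for Jag1 and, rounded, 100.0% for Jag2. The GC-box letters GGGCGG, searched on both strands, occurred in 4 of these 5 windows, 5 times in Notch1, 7 in Notch2, 4 in Notch3 and 5 in Jag2, and were not found in that of Jag1. Of all 32851 promoter windows 35.7% held them. The letters TATAAA, present in 13.6% of all windows, were in none of the 5. RefSeq placed the start of Jag1 124 bases downstream of the start used in the tables. It placed that of Notch3 10 bases upstream, and those of Notch1, Notch2 and Jag2 at the same base, while GENCODE M21 placed the start of Jag2 281 bases farther upstream.

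**Figure D1:**
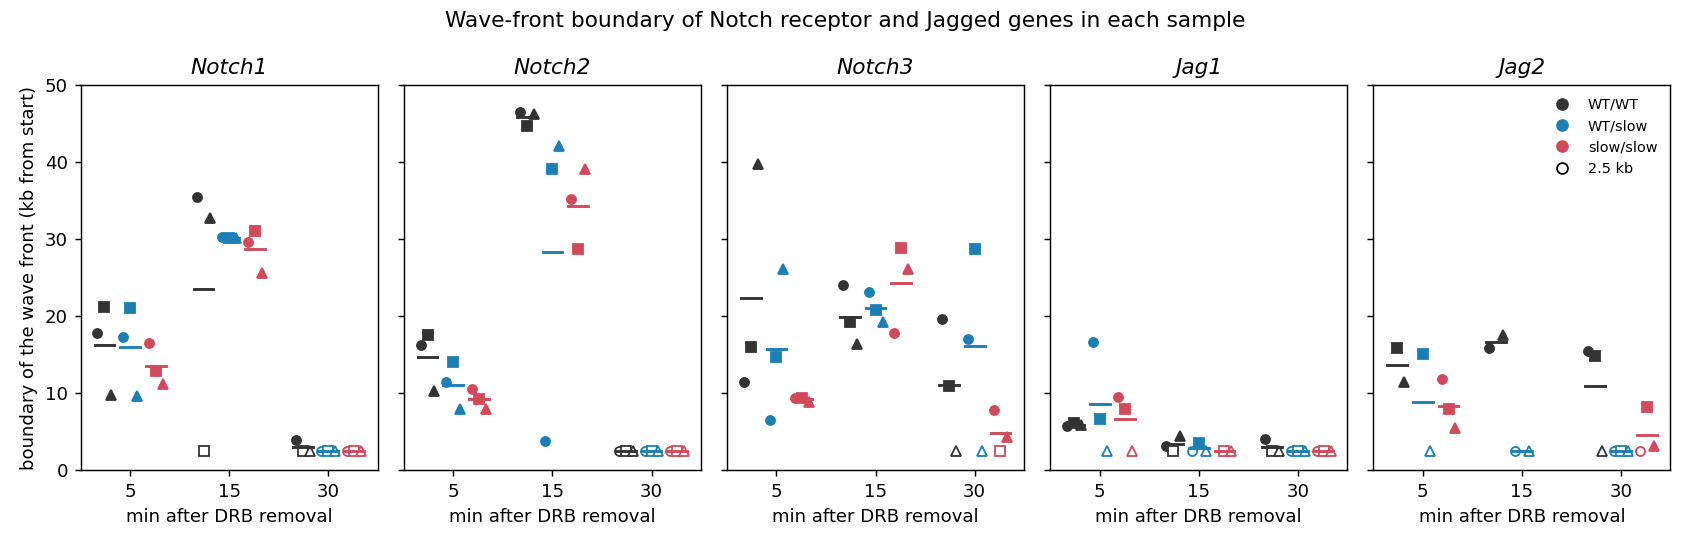
Boundary of the wave front (kb from the annotated start) of each gene's main transcript against time after DRB removal, for each sample, with WT/WT in dark grey, WT/slow in blue and slow/slow in red. Circles, squares and triangles are replicates 1, 2 and 3, open symbols are boundaries of exactly 2.5 kb and horizontal lines are group means. Notch2 reached 44.7 to 46.5 kb in WT/WT cells after 15 min, whereas Jag1 stayed at or below 4.4 kb in every sample with a boundary at that time.

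Notch2 held the farthest front of the 5 genes, in WT/WT cells after 15 min. The gene encodes a receptor with broad roles, for example in marginal zone B cells and bile duct formation, and its main transcript, ENSMUST00000079812, occupies chr3:98013538-98150361 on the plus strand (136.82 kb, 34 exons). In WT/WT cells its front stood at 16.3, 17.6 and 10.3 kb after 5 min and at 46.5, 44.7 and 46.2 kb after 15 min. In slow/slow cells the corresponding values were 10.5, 9.2 and 7.9 kb and then 35.2, 28.7 and 39.1 kb. In WT/slow cells they were 11.4, 14.0 and 7.9 kb and then 3.8, 39.1 and 42.1 kb. Every sample taken after 15 min was thus ahead of every sample of its genotype taken after 5 min, apart from 1 WT/slow library at 3.8 kb. Among all transcripts of at least 20 kb with 6 boundaries in a genotype, 7.37% had all WT/WT samples farther out after 15 min than after 5 min, and 27.5% all slow/slow samples.

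Between 5 and 15 min the Notch2 front advanced by 31.07 kb in WT/WT cells (SE 7.16, adjusted p = 0.0115, limma with Benjamini-Hochberg adjustment over 28503 transcripts), a rate of 3.11 kb/min with a 95% confidence interval of 1.57 to 4.65. In slow/slow cells it advanced by 25.13 kb (SE 7.16, limma adjusted p = 0.0379), or 2.51 kb/min (0.97 to 4.05). In WT/slow cells the estimate was 17.23 kb (SE 7.16, limma adjusted p = 0.135), or 1.72 kb/min (0.18 to 3.26), which did not pass the threshold of 0.05. Without the WT/slow replicate at 3.8 kb it was 29.50 kb with a limma adjusted p of 0.000196. The slow/slow call was lost when any 1 of the 6 slow/slow libraries, or replicate 3 of WT/slow after 5 min, was left out, with limma adjusted p from 0.0505 to 0.0979, while the WT/WT call was kept without any single library. Neither call held when the boundaries were fitted as log2 values (limma adjusted p = 0.107 in WT/WT and 0.0778 in slow/slow).

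Of the 4 main transcripts that could be tested, Notch2 was the only one called for progress, in WT/WT and in slow/slow cells. Of all transcripts tested, 11.7% were called in WT/WT cells, 14.3% in WT/slow and 11.8% in slow/slow, and those called with a front farther out after 15 min made up 3.96%, 5.9% and 7.05%. The mean front of Notch2 after 15 min in WT/WT cells, 45.80 kb ± 0.96 (SD, n = 3), lay beyond that of 99.0% of 28986 transcripts of at least 20 kb, and beyond 98.2% of 17311 transcripts of at least 40 kb. Transcripts shorter than 45.80 kb cannot reach that front. In these WT/WT libraries 40.9% to 56.4% of boundaries of transcripts of at least 20 kb were at 2.5 kb. The rank is thus bound up with length and with that value.

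The first 2 introns of Notch2 are long, 33.96 and 23.05 kb, and the fronts of both times fell inside them. Exon 2, of 82 bases, starts 34.19 kb from the start of the gene. All fronts after 5 min lay in intron 1. After 15 min the 3 WT/WT fronts lay in intron 2, beyond exon 2, as did 2 of 3 in each of the other genotypes. The slow/slow front at 28.7 kb and the WT/slow front at 3.8 kb were still in intron 1.

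**Figure D2:**
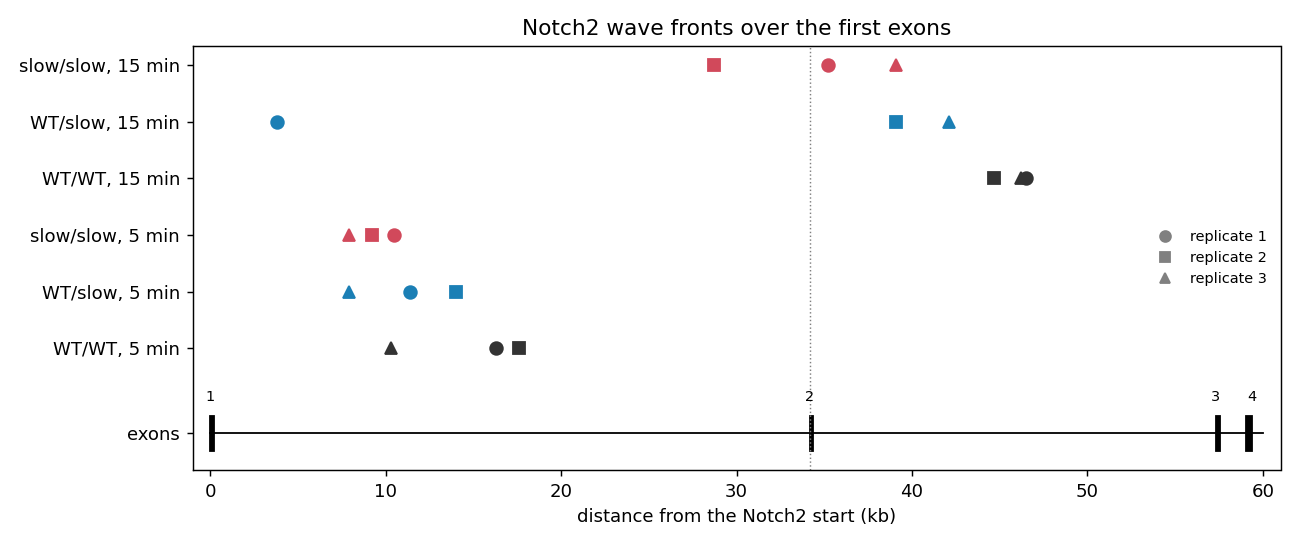
Position of the Notch2 front (kb from the start of the gene) in each sample after 5 and 15 min, above a map of exons 1 to 4 (black boxes) to the same scale. Symbols are replicates and colours genotypes, and the dotted line marks exon 2 at 34.19 kb. After 15 min all WT/WT fronts lie to the right of all slow/slow fronts.

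The DNA at these fronts is shown for the middle replicate of WT/WT and of slow/slow cells after 15 min, as 100 bases of GRCm38 on the plus strand with the base at the boundary in capitals. Both windows lie in intron 2.
Notch2 WT/WT front at 46.2 kb, chr3:98059688-98059787: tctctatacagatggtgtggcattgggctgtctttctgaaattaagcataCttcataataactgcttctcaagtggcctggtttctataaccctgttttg
Notch2 slow/slow front at 35.2 kb, chr3:98048688-98048787: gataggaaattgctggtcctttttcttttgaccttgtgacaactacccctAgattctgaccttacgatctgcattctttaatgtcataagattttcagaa

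In the comparison of genotypes, all 3 slow/slow fronts of Notch2 after 15 min lay below all 3 WT/WT fronts. Of 26232 transcripts of at least 20 kb with a boundary in all 6 samples, 6.67% had that order. The slow/slow mean was 34.33 kb ± 5.25 (SD, n = 3), and the difference from WT/WT was −11.47 kb (95% confidence interval −26.88 to 3.95, limma adjusted p = 0.435), so it was not called in the fit over all 3 genotypes. That fit shares 1 estimate of the spread, to which the WT/slow replicate at 3.8 kb contributes. Fitted with WT/WT and slow/slow cells alone, the same difference had a limma adjusted p of 0.0277, and without that WT/slow replicate one of 0.0174. In the fit of the 2 genotypes 9.56% of 28924 transcripts were called, and 1.93% were called with a shorter boundary in slow/slow cells. In the fit of all genotypes the share called as shorter was 1.48%. The difference between WT/slow and WT/WT was −17.47 kb (−32.88 to −2.05, limma adjusted p = 0.292), and −5.20 kb without the replicate at 3.8 kb (limma adjusted p = 0.517). After 5 min the Notch2 fronts of WT/WT and slow/slow cells overlapped, from 10.3 to 17.6 kb and from 7.9 to 10.5 kb, with a difference of −5.53 kb (−20.95 to 9.88, limma adjusted p = 1.00). The rates of the 2 genotypes were not shown to differ, at −0.59 kb/min for slow/slow minus WT/WT with a 95% confidence interval of −2.77 to 1.59 (limma adjusted p = 0.882).

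The second Notch2 transcript, ENSMUST00000198324, annotated as a retained intron of 87.13 kb, starts 11 bases from the main one. Its boundary equalled that of the main transcript in 5 of 9 samples after 5 min, 2 of 9 after 15 min and 9 of 9 after 30 min, and lay within 1 kb of it in 6, 8 and 9 samples. The widest gaps were −2.2 and 2.9 kb, both after 5 min. These transcripts share nearly the same start and sequence and are not independent measurements.

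Notch1, the receptor whose intracellular domain was first known from T cell leukaemia, is shorter. Its main transcript, ENSMUST00000028288, occupies chr2:26457903-26503822 on the minus strand (45.92 kb, 34 exons). After 5 min the fronts stood at 17.8, 21.2 and 9.8 kb in WT/WT cells, at 17.3, 21 and 9.6 kb in WT/slow and at 16.5, 12.9 and 11.2 kb in slow/slow. The genotypes overlapped, and the replicates of WT/WT and of WT/slow were spread more widely than those of slow/slow. These fronts lay in the 16.43 kb intron 2, apart from replicate 2 of WT/WT and of WT/slow, which had reached intron 4.

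After 15 min the Notch1 fronts stood at 35.5, 2.5 and 32.7 kb in WT/WT cells, at 30.3, 30.2 and 30.1 kb in WT/slow and at 29.6, 31.1 and 25.6 kb in slow/slow. The WT/WT replicate at exactly 2.5 kb stands apart from the other 8 samples. In the same library 56.4% of all boundaries of transcripts of at least 20 kb were at 2.5 kb, the highest share of the 9 libraries at that time (32.2% to 46.0% in the others), and its part in the Notch1 value was not tested. The other 8 fronts lay between exon 11 and exon 25.

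The Notch1 calls turned on this library. With it, progress in WT/WT cells was 7.30 kb (95% confidence interval −6.72 to 21.32, limma adjusted p = 0.537). With boundaries of 2.5 kb left out it was 17.83 kb, or 1.78 kb/min (limma adjusted p = 0.00868), and in WT/slow and slow/slow cells the estimates of 14.23 and 15.23 kb then passed too (limma adjusted p = 0.0157 and 0.0149, against 0.176 and 0.142 with all boundaries). In that setting 21.6%, 26.5% and 26.5% of 7965 transcripts were called as farther out after 15 min, in the order WT/WT, WT/slow, slow/slow. The genotype difference after 15 min, slow/slow minus WT/WT, turned from 5.20 kb (−8.82 to 19.22) to −5.33 kb (−14.63 to 3.96) and was called in neither setting (limma adjusted p = 0.800 and 0.522). With 2.5 kb left out 8.56% of the 7965 transcripts were called for that difference, 4.08% as shorter in slow/slow.

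A further long Notch1 transcript, ENSMUST00000132820 (45.39 kb, 4 exons), starts 12.84 kb upstream of the main start, in the sequence without CpG dinucleotides shown above, and ends inside the gene. Placed on the same scale, its front lay short of that of the main transcript in 8 of 9 samples after 5 min and in all 7 samples with both values after 15 min, with a median difference, upstream minus main, of −3.94 and −26.94 kb. This front lay upstream of the main start in 3 samples after 5 min and in 4 after 15 min. In WT/WT cells the mean boundary of this transcript was 24.97 kb after 5 min but 7.27 kb after 15 min, nearer to its start. In WT/slow and slow/slow cells its means rose, from 19.20 to 27.75 kb and from 8.30 to 12.25 kb, with 2 values each after 15 min. Its boundaries after 5 min were 20.7, 31.6 and 22.6 kb in WT/WT cells but 2.5, 2.3 and 20.1 kb in slow/slow cells, without overlap, a difference of −16.67 kb (95% confidence interval −34.17 to 0.84, limma adjusted p = 0.805). That order of the groups occurred in 11.9% of 25990 transcripts. Beyond 12.84 kb from its start this transcript overlaps the main one, so their boundaries are not independent measurements there. The part of the main wave in its longer boundaries was not tested. A short Notch1 transcript, ENSMUST00000131393 (5.67 kb, a retained intron), had 21 boundaries, and its group means after 15 min were 2.5 kb in all 3 genotypes.

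**Figure D3:**
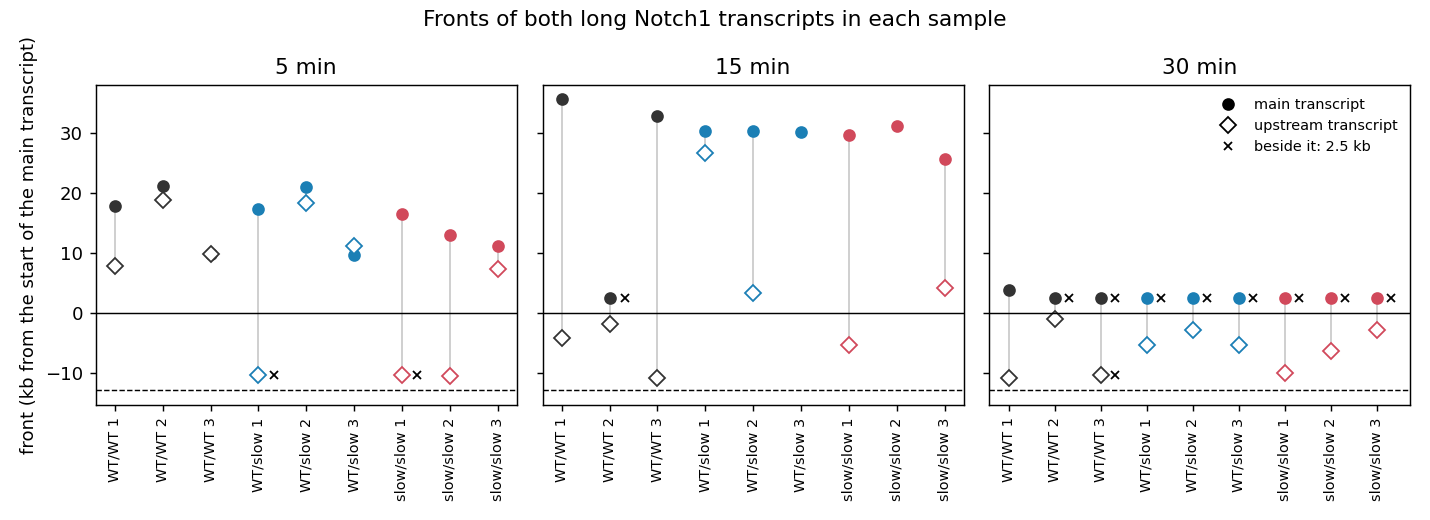
Front of both long Notch1 transcripts in each sample after 5, 15 and 30 min, as distance in kb from the start of the main transcript (solid line at 0). Filled circles are the main transcript, open diamonds the one that starts 12.84 kb upstream (dashed line), a cross to the right of a symbol marks a boundary of exactly 2.5 kb, and grey lines join values of 1 sample; 2 samples lack an upstream value after 15 min. The upstream transcript's front lies lower in 8 of 9 samples after 5 min and in all 7 after 15 min.

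Notch3, a receptor best known from vascular smooth muscle, has 1 transcript, ENSMUST00000087723, at chr17:32120820-32166880 on the minus strand (46.06 kb, 33 exons), close in length to Notch1. Its WT/WT fronts after 5 min were the most scattered of the receptors, at 11.4, 16.0 and 39.7 kb. WT/slow fronts stood at 6.5, 14.7 and 26.1 kb, and slow/slow fronts at 9.4, 9.4 and 8.8 kb. All 3 slow/slow values lay below all 3 WT/WT values, but the difference of −13.17 kb (95% confidence interval −26.54 to 0.21) was not called (limma adjusted p = 0.785), and without replicate 3 of WT/WT after 5 min it was −4.50 kb. As given above, 11.9% of transcripts had this order of the groups.

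After 15 min the Notch3 fronts stood at 24.0, 19.2 and 16.4 kb in WT/WT cells, at 23.1, 20.8 and 19.2 kb in WT/slow and at 17.8, 28.9 and 26.1 kb in slow/slow. The genotypes overlapped, and none of these values was 2.5 kb. Progress was estimated at −2.5 kb for WT/WT (limma adjusted p = 0.894), 5.27 kb for WT/slow (0.654) and 15.07 kb for slow/slow cells (0.129), none of them called. All 3 slow/slow samples were farther along after 15 min than after 5 min, as were 27.5% of 25500 transcripts in that genotype. The slow/slow estimate passed (limma adjusted p = 0.0414) when replicate 3 of WT/WT after 5 min, the value of 39.7 kb, was left out.

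The antisense gene Gm17276 overlaps Notch3, with a transcript of up to 28.41 kb and a boundary in all 27 samples, and 0610009E02Rik overlaps Notch1 on the opposite strand, with a boundary in 23. Gm42819 overlaps Notch2 on the same strand, with a transcript of up to 5.12 kb and a boundary in 8 samples. The libraries were made with a directional kit, but whether strand was used in counting is not given in the sources used here. The part of these genes in the Notch3, Notch1 and Notch2 boundaries was not tested.

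Among the ligand genes, Jag1 encodes the ligand altered in Alagille syndrome. Its mean boundary lay nearer to the start after 15 min than after 5 min in each genotype. Its transcript with boundaries, ENSMUST00000028735, lies at chr2:137081456-137116644 on the minus strand (35.19 kb, 26 exons). After 5 min its fronts stood close together in WT/WT cells, at 5.8, 6.1 and 5.9 kb. They were spread out in WT/slow, at 16.7, 6.6 and 2.5 kb, and in slow/slow, at 9.5, 7.9 and 2.5 kb. After 15 min they were nearer to the start in WT/WT cells, at 3.2, 2.5 and 4.4 kb, in WT/slow, at 2.5, 3.5 and 2.5 kb, and in slow/slow, at 2.5 and 2.5 kb with 1 replicate lacking a boundary. The estimated change between 5 and 15 min was negative in each genotype, −2.57 kb for WT/WT, −5.77 kb for WT/slow and −4.13 kb for slow/slow. It was called in none (limma adjusted p = 0.657, 0.23 and 0.427). Whether a boundary of 2.5 kb marks the wave in this gene is not known. Whether the wave had left the gene by 15 min was not tested.

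Jag2, which encodes a ligand required for limb and craniofacial development, is the shortest of the 5. Its transcript ENSMUST00000075827 lies at chr12:112908590-112929495 on the minus strand (20.91 kb, 26 exons) and had 20 boundaries in 27 samples. After 5 min the WT/WT fronts stood at 15.9 and 11.5 kb, the WT/slow fronts at 15.1 and 2.5 kb and the slow/slow fronts at 11.8, 7.9 and 5.5 kb, with replicate 1 of WT/WT and of WT/slow lacking a boundary. After 15 min the WT/WT samples gave 2 values, 15.8 and 17.6 kb. WT/slow gave 2, both of them 2.5 kb, and slow/slow gave none. For want of slow/slow values Jag2 could not enter the fit of all 6 groups. Tested on the groups of each comparison alone, slow/slow minus WT/WT after 5 min was −5.30 kb (95% confidence interval −12.80 to 2.20, limma adjusted p = 0.661), and WT/slow minus WT/WT after 15 min was −14.20 kb (−17.28 to −11.12, limma adjusted p = 0.0595). The latter rests on 2 samples a group, of which the WT/slow pair had no spread, and in the fit of both genotypes at both times its limma adjusted p was 0.319.

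The 5 genes were then compared with each other within samples. The mean difference between 2 main transcripts was tested with an exact two-sided sign-flip permutation test over the samples of all genotypes, 16 tests in all, with Benjamini-Hochberg adjustment. Pairs with Jag2 after 15 min had too few samples and were not tested. The test takes the samples as independent, while same-numbered samples tended to correlate, as given at the end. The p-values do not allow for that. After 5 min Notch1 was ahead of Notch2 in 8 of 9 samples, by 3.58 kb ± 2.44 (SD, exact permutation p = 0.00781, adjusted p = 0.0312). It was ahead of Jag1 in 9 of 9, by 8.20 kb ± 4.87 (exact permutation p = 0.00391, the smallest that 9 samples allow, adjusted p = 0.0312). With boundaries of 2.5 kb left out, both calls were lost, each with an adjusted p of 0.0625 (exact permutation test). That setting removes 2 of the 9 Jag1 values. It removes no value of Notch1 minus Notch2, whose exact permutation p stayed at 0.00781. For that pair only the adjustment, then over 12 tests, had changed. The other 8 pairs did not pass after 5 min. Notch2 was ahead of Jag1 in 8 of 9 samples, by 4.62 kb ± 5.17 (exact permutation test, adjusted p = 0.0625).

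After 15 min the order of Notch1 and Notch2 was turned in most samples. Notch2 was ahead in 7 of 9 samples, and Notch1 minus Notch2 was −8.64 kb ± 17.88 (exact permutation test, adjusted p = 0.25), which did not pass. Notch2 was ahead of Jag1 in 8 of 8 samples, by 33.33 kb ± 14.05, and Notch3 was ahead of Jag1 in 8 of 8, by 19.26 kb ± 4.53 (exact permutation p = 0.00781 for each, the smallest that 8 samples allow, adjusted p = 0.0312). Of those 8 Jag1 values 5 were 2.5 kb, and without them too few samples were left to test either pair. Notch1 was ahead of Jag1 in 7 of 8 samples and level in the other, by 24.30 kb ± 10.14, with an adjusted p of 0.05, not under the threshold (exact permutation test). Notch3 was behind Notch2 in 7 of 9 samples (14.43 kb ± 15.30, exact permutation test, adjusted p = 0.0781). A front cannot lie beyond the end of its gene, and Jag1 is 35.19 kb long against 136.82 kb for Notch2. Expressed as percent of transcript length, 6 pairs differed after 5 min and 5 after 15 min. No boundary in any sample exceeded 59.3 kb, well short of the length of Notch2, so the order of the genes on that scale is bound up with their lengths.

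Across the 4 genes tested, none was called between slow/slow and WT/WT cells after 5 min, after 15 min or in progress, where 0.158%, 8.11% and 3.67% of all transcripts were called (0.2% as shorter in slow/slow in progress), and none at those points between WT/slow and WT/WT, where 0.119%, 2.56% and 0.554% were. With 4 genes, counts of 0 beside such shares are no result about these genes. At an unadjusted p under 0.05 the count was 1 of 4, Notch2, for WT/slow minus WT/WT after 15 min, and 0 in the other 5 comparisons. Over all transcripts 12.9% passed that limit for WT/slow minus WT/WT after 15 min, 5.25% after 5 min and 6.42% in progress, and for slow/slow minus WT/WT 6.51% did after 5 min, 20.3% after 15 min and 14.1% in progress. The Notch2 estimate behind the count of 1 rests on the WT/slow library at 3.8 kb, as given above. The median over the 4 genes of slow/slow minus WT/WT was −4.13 kb after 5 min, 1.77 kb after 15 min and 3.18 kb in progress, beside −1.67, 0.60 and 3.07 kb over all 28503 transcripts. The largest uncalled estimate in progress was that of Notch3, 17.57 kb (95% confidence interval −1.35 to 36.48, limma adjusted p = 0.402), which was 8.90 kb without the WT/WT library at 39.7 kb after 5 min.

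**Figure D4:**
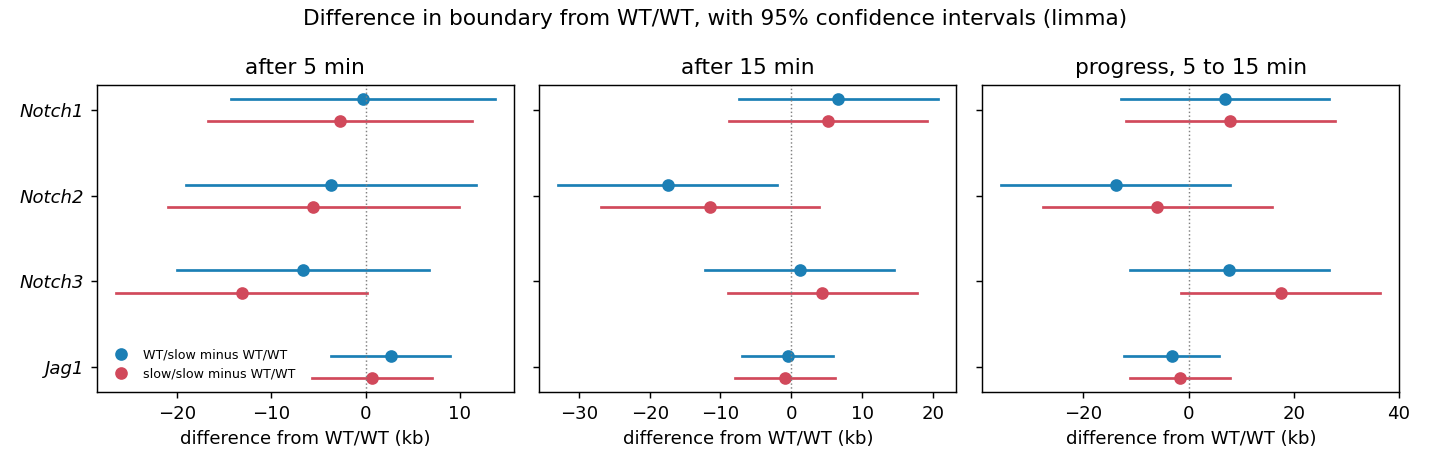
Difference in boundary from WT/WT (kb) for WT/slow (blue) and slow/slow (red) in the main transcripts of Notch1, Notch2, Notch3 and Jag1, after 5 min, after 15 min and in the progress between them. Points are limma estimates over 3 replicates per group (2 for Jag1 in slow/slow after 15 min) and bars their 95% confidence intervals; Jag2 could not be fitted. No bar of slow/slow minus WT/WT excludes 0, and the only bar that does is that of Notch2, WT/slow minus WT/WT, after 15 min, whose estimate was −5.20 kb without the WT/slow library at 3.8 kb.

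After 30 min most boundaries were at 2.5 kb, and whether the wave had left the genes by then was not tested. Notch2 was at exactly 2.5 kb in 9 of 9 samples. Notch1 ranged from 2.5 to 3.9 kb and Jag1 from 2.5 to 4.0 kb, with 1 sample each above 2.5 kb. Notch3 and Jag2 kept longer values in some samples. Notch3 stood at 19.6, 10.9 and 2.5 kb in WT/WT cells, at 17.0, 28.7 and 2.5 kb in WT/slow and at 7.8, 2.5 and 4.3 kb in slow/slow. Jag2 stood at 15.5, 14.8 and 2.5 kb in WT/WT cells, at 2.5 kb in all 3 WT/slow samples and at 2.5, 8.2 and 3.1 kb in slow/slow. None of the 5 genes was called after 30 min for slow/slow minus WT/WT or WT/slow minus WT/WT, where 1.31% and 0.617% of 29667 transcripts were. Without replicate 3 of WT/WT, Jag2 was called for WT/slow minus WT/WT (−12.65 kb, limma adjusted p = 0.0352, against −8.43 kb and 0.846 with it). That call sets WT/WT values of 15.5 and 14.8 kb against WT/slow values that were all 2.5 kb and had no spread. The share of all transcripts called without that library is not given here. Of 45 boundaries of the 5 main transcripts, 33 were at 2.5 kb after 30 min, against 3 of 43 after 5 min and 8 of 39 after 15 min.

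Other genes of the pathway were read through a list of 52 that act beside the receptors and Jagged ligands. Of these, 32 could be tested after 5 and 15 min, 1 of 4 further receptors and ligands, 17 of 27 in receptor processing and trafficking, 14 of 15 in the nuclear complex, and none of 6 target genes, which are short and had no boundary. Between slow/slow and WT/WT cells 3 of the 32 were called after 15 min and 3 in progress, all with longer values in slow/slow, and 0 after 5 min. Over all transcripts 8.11% were called after 15 min and 3.67% in progress, so the counts over the list are no result about the pathway. Among the genes called were Dtx2, a Deltex E3 ligase that modulates Notch, and Tle3, a Groucho-family corepressor.

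After 15 min the front of Tle3 stood at 2.5 kb in all 3 WT/WT samples and at 28.5, 25.9 and 27.2 kb in slow/slow, a difference of 24.70 kb (SE 4.94, limma adjusted p = 0.00593). Dtx2 stood at 4.5, 2.5 and 2.5 kb in WT/WT and at 29.1 and 27.8 kb in slow/slow, a difference of 25.28 kb (SE 3.82, limma adjusted p = 0.001). After 5 min WT/WT fronts stood farther out, at 11.8, 17.4 and 8.1 kb in Tle3 and at 9.9 kb or more in Dtx2. Slow/slow fronts were then at 7.6 to 12.7 kb in Tle3 and 10.3 to 23.6 kb in Dtx2. WT/slow values after 15 min were 4.3, 2.5 and 2.5 kb in Tle3 and 2.5 kb in all 3 Dtx2 samples. The genes are 45.27 kb (Tle3) and 38.07 kb (Dtx2) long. Whether the wave had left them by 15 min was not tested. After 15 min, WT/WT values that were mostly 2.5 kb faced slow/slow values of 25.9 kb or more. That order is the reverse of the one in Notch2, but does not by itself show a faster wave. The share of all boundaries at 2.5 kb was higher in all WT/WT than in all slow/slow libraries at that time, as given above, and its part in these values was not tested. Without the boundaries of 2.5 kb each had at most 1 WT/WT value after 15 min and could not be tested. The median of slow/slow minus WT/WT over the 32 genes was −2.84 kb after 5 min, 0.86 kb after 15 min and 6.80 kb in progress, beside −1.67, 0.60 and 3.07 kb over all transcripts. In WT/slow cells none of the 32 was called against WT/WT after 5 min, after 15 min or in progress.

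The transcripts whose boundaries ran closest to those of the receptors were found by the mean absolute difference over the 18 samples at 5 and 15 min, among 7585 genes with a boundary in every one. Nearest to Notch1 were Kmt2a (2.93 kb) and Cltc (3.12 kb), where the median gene differed by 12.64 kb. Nearest to Notch2 were Dirc2 (3.37 kb) and Zdhhc17 (3.66 kb), against a median of 15.92 kb. Nearest to Notch3 were Glb1 (5.03 kb) and Homer1 (5.11 kb), against 11.81 kb. Jag1 and Jag2 lacked a boundary in some of these samples and were left out. These likenesses are descriptions of single transcripts measured in shared libraries.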

How the data were processed

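Nascent RNA was measured by 4sU-DRB-seq in 27 samples, and a further 18 (0 min or no DRB) were not analysed here. The authors aligned reads to mm10 (GRCm38) with Bowtie2 2.2.9 (the version per the submitters' processing notes), binned them and located the wave end with published software. The deposited values are boundaries, whole distances in bases and not counts, in steps of 100; they were used in kb. Depth is unknown and no counting error can be given.

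Transcripts were named through GENCODE M21 (122200 of 122968 matched). A gene's main transcript was that with most boundaries, then the longest. The member genes, lists and tests were chosen with earlier results of these data known. limma 3.58.1 (R 4.3.3) was fitted to every transcript no shorter than 20 kb for which each group held 2 or more boundaries, 1 mean per group, over 18 samples at 5 and 15 min and separately over 9 at 30 min, and p-values were adjusted by Benjamini-Hochberg over all of them (called under 0.05). The named genes are the 5 members, pathway genes called for a genotype difference and the nearest patterns. One pathway gene called for a genotype difference is not reported here. The script was tested on simulated data. There, 200 of 28503 transcripts were changed by 10, 20 or 40 kb in slow/slow after 15 min. The fit called 8%, 36% and 79% of them, so most changes of 10 kb were missed. Alternatives were log2 values, boundaries at 2.5 kb left out, a boundary in every sample, no length filter, 40 kb, the longest transcript, percent of length, 2 genotypes only, the replicate block and each library left out. A filter on the groups of each comparison was added after seeing the data. Python 3.11.15, NumPy 2.4.6 and pandas 2.3.3 did the rest.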

Additional observations from a re-analysis of the deposited data

How the results depend on the processing

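With boundaries of 2.5 kb left out, Notch1 joined the calls for progress, which made 2 genes in WT/WT, 1 in WT/slow and 2 in slow/slow cells instead of 1, 0 and 1, and no gene pair passed the exact permutation test at either time (0 instead of 2 and 2; pairs with Jag1 after 15 min then had too few samples to test). On the log2 scale no gene was called for progress (0 in WT/WT and 0 in slow/slow), and 3 estimates that were not called turned sign, −0.12 for Notch1 progress in WT/WT, −0.05 for Jag1 in slow/slow minus WT/WT after 5 min and 0.22 for Notch2 in slow/slow minus WT/WT progress (all log2). With 2.5 kb left out, Notch1 turned from 5.20 to −5.33 kb in slow/slow minus WT/WT after 15 min, to −2.60 kb in its progress and to −3.90 kb in WT/slow minus WT/WT after 15 min. As percent of length 6 and 5 pairs differed after 5 and 15 min. With 2 genotypes in the fit, 1 gene (Notch2) was called for slow/slow minus WT/WT after 15 min. With the filter on the compared groups alone, 3 genes (Notch1, Notch2 and Notch3) were called for progress in slow/slow cells. That filter was added after seeing the data, and the share of all transcripts called with it is not given here. The count is therefore no result about these genes. The cause of the changes between settings was not tested. The longest transcript was the main one in all 5 genes, so that setting changed nothing, and a boundary in every sample, no length filter and 40 kb changed no count of genes.

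Leaving out each library in turn gave 1 to 2 genes called for progress in WT/WT, 0 to 1 in WT/slow and 0 to 2 in slow/slow cells, 0 to 1 for slow/slow minus WT/WT after 15 min and for WT/slow minus WT/WT after 30 min, and 0 in the other comparisons. The shares of all transcripts called in those fits are not given here, so the counts are no result about these genes. The estimates that turned sign ranged from −0.73 to 2.77 kb (Jag1, slow/slow minus WT/WT after 5 min), from −5.33 to 11.17 kb (Notch1, the same after 15 min), from −2.60 to 13.90 kb (Notch1, the same in progress), from −3.90 to 12.60 kb (Notch1, WT/slow minus WT/WT after 15 min) and from −0.57 to 3.23 kb (Notch3, the same). Leaving out a replicate number gave 0 pairs at both times; with at most 6 samples left, the smallest possible exact p is 0.0312, and the lowest adjusted p was 0.0938.

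With replicate as a block (replicate block), the counts of genes called for progress stayed at 1, 0 and 1 and those for all genotype differences at 0, and Jag1 in slow/slow minus WT/WT after 15 min turned to 0.17 kb, not called. The labels share replicate numbers between genotypes but do not say that equal numbers were handled together. Deviations of same-numbered samples correlated at −0.007 to 0.329 over 21871 transcripts (over 0.1 in 23 of 45 pairs), and 18 of 18 samples correlated best with their own number, a hint from the data and not from the design.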
